A study of Caenorhabditis elegans with 6 samples.

Results

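The basic helix-loop-helix (bHLH) transcription factor genes of C. elegans were examined for binding by HIF-1, the hypoxia-inducible factor. Members were all nuclear protein-coding genes of the WBcel235 genome whose name starts with hlh-, together with 14 named relatives that carry other names (mdl-1, mxl-1, mxl-2, mxl-3, mml-1, aha-1, ahr-1, cky-1, lin-22, lin-32, cnd-1, ngn-1, sbp-1 and ref-1). This gave 39 of 19973 genes. The product name in the RefSeq annotation spelled out a helix-loop-helix protein or domain for 26 of the 39. Among the others were a Mad-like protein for mdl-1, a Twist-related protein for hlh-8 and an aryl hydrocarbon receptor for ahr-1, whereas the products of lin-32, mxl-3 and ref-1 named no family, so these genes rest on the list of members alone.

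HIF-1 fused to GFP was mapped by chromatin immunoprecipitation and sequencing (ChIP-seq), with polyclonal anti-GFP antibodies, in whole L4 larvae raised in room air on OP50 bacteria at 20 °C. In both strains the animals lacked endogenous hif-1 through the hif-1(ia4) deletion and also carried the integrated transgene odIs131[hif-1::gfp]. They shared the unc-119(ed3) mutation as well, which a working unc-119 copy in the transgene complements. The control strain, OR3349, was otherwise normal for egl-9. The other strain, OR3350, carried egl-9(sa307) and so lacked EGL-9, an oxygen-dependent prolyl hydroxylase whose action on HIF-1 leads to its destruction. For each of 2 genotypes the study sequenced 2 ChIP replicates with 1 pooled input, and 1 list of reproducible peaks per genotype was analysed. No spread between replicates can therefore be given for any value below. Read numbers were available from the study only as a range that spans all libraries, so no depth can be tied to a single library or genotype. Signals are those of the deposited lists and were not scaled between genotypes. In egl-9 mutants 604 nuclear peaks were listed, with signals from 54.4 to 838 and a median of 76.7. The control list held 52 peaks with signals from 141 to 671 and a median of 170. The chromatin came from all tissues together, so a site bound in a few cells and a site bound weakly in many cannot be told apart.

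Proteins of the bHLH class bind DNA as dimers through a basic region and pair through the helix-loop-helix. Most recognise an E-box, a short element of which CACGTG is the form preferred by the Myc, Mondo, Max, Mad and TFEB classes. HIF-1 is itself a bHLH protein of the PAS class. With its partner AHA-1 it binds hypoxia response elements (HREs) through a core written RCGTG, where R stands for A or G. The E-box CACGTG contains ACGTG on both strands and therefore always counts as an HRE core as well.

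In egl-9 mutants 4 bHLH genes lay near a peak, near meaning no more than 2000 bp between a peak centre and any annotated transcription start site (TSS) of the gene. They were hlh-30, which encodes the relative of mammalian TFEB that activates autophagy and lysosome genes, mdl-1, which encodes a Mad-like protein, mml-1, which encodes a relative of Mondo and ChREBP, and hlh-11, which encodes a relative of AP-4. Together these genes had 6 peaks, which are given here as plus-strand sequence of WBcel235 around each peak centre because the motifs discussed below can be read from them. Capitals mark HRE cores on either strand, and the E-boxes are the runs CACGTG within them. The window at the end of mdl-1 begins after the last base of the gene.
hlh-30 intronic peak, IV:4026013-4026213: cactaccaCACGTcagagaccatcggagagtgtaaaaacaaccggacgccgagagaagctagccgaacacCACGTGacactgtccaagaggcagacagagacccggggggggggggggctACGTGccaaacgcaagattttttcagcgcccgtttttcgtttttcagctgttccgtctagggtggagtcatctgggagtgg
hlh-30 upstream peak, IV:4028216-4028416: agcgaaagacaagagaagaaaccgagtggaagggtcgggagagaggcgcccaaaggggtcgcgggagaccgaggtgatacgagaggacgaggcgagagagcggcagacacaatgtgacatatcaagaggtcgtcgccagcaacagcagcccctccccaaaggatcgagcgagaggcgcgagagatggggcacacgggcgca
mdl-1 upstream peak, X:6742086-6742286: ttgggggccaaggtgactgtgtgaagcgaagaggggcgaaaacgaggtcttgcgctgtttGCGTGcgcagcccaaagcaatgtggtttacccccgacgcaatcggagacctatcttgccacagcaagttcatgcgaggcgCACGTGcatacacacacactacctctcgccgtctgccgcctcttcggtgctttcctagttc
mdl-1 downstream peak, X:6743900-6744072: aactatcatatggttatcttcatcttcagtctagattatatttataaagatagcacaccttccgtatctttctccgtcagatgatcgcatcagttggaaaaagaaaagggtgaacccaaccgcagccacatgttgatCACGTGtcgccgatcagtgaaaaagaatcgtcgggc
mml-1 upstream peak, III:7376505-7376705: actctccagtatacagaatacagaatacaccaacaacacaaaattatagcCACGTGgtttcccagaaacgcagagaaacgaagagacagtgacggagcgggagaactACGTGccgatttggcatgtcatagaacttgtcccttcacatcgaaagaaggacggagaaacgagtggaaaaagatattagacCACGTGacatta
hlh-11 upstream peak, III:9619331-9619531: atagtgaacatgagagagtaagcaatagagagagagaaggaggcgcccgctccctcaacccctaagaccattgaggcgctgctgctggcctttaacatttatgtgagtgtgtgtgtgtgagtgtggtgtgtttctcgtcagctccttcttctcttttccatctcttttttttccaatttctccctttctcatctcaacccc

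The strongest peak at a bHLH gene lay inside hlh-30. HLH-30 moves into the nucleus in starved or stressed animals and is needed for their survival. Its gene lies on the minus strand of chromosome IV, spans 20159 bp and has 13 annotated transcripts that start at 10 TSSs spread over 16621 bp. The peak, at IV:4025967-4026258, had a signal of 304 and ranked 14 of 604 in egl-9 mutants, and 3 of the 94 peaks on its chromosome. Among the 665 protein-coding genes near a peak, ordered by their strongest peak, hlh-30 ranked 15. The peak centre lay 950 bp downstream of the nearest TSS, in the first or the second intron of 7 transcripts and upstream of the other 6. Its window held 4 core matches at 3 separate places, 1 of them an E-box that begins at position -30 from the centre. The peak was 292 bp long, whereas 557 of the 604 peaks had the same length of 444 bp and 43 were shorter.

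hlh-30 had a second peak, at IV:4028094-4028537, whose signal of 55.2 ranked 588 of 604. It was centred 189 bp upstream of the nearest TSS, upstream of 10 transcripts and in the first intron of the other 3. The labels intronic and upstream for the peaks of hlh-30 thus refer to the nearest TSS. The centre of the upstream peak lay 2203 bp from that of the intronic peak, whose signal was 5.51 times as high. The window of the upstream peak, 100 bp to each side of the centre, held no HRE core, although the whole peak held 1. The window had a GC content of 61.7%, against a median of 45.3% over the list and 56.7% at the intronic peak. It contained GAGAGA at 3 places, a repeat present in 40.9% of the list's peaks on either strand. With only the most upstream TSS of each gene counted, hlh-30 was no longer near either peak.

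hlh-30 was also the bHLH gene with a control counterpart. The control peak at IV:4025911-4026350 had a signal of 167 and ranked 28 of 52, close to the median of that list. It covered all 292 bp of the intronic peak of egl-9 mutants, with summits 13 bp apart. It was centred 932 bp downstream of the nearest TSS, and its window held the same E-box. Of the 6 member peaks in egl-9 mutants this was the 1 that overlapped a control peak (16.7%), beside 10.1% of all peaks of the list. Since the lists were not scaled to each other, the values of 304 and 167 do not give a change in binding. For each of the other genes the nearest control peak lay between 39968 bp (hlh-13) and 3679418 bp (mxl-2) from a TSS. The lowest signal in the control list was 141, and the intronic peak of hlh-30 and the peak of mml-1 were the member peaks of egl-9 mutants above it, again on unscaled signals.

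**Figure D1:**
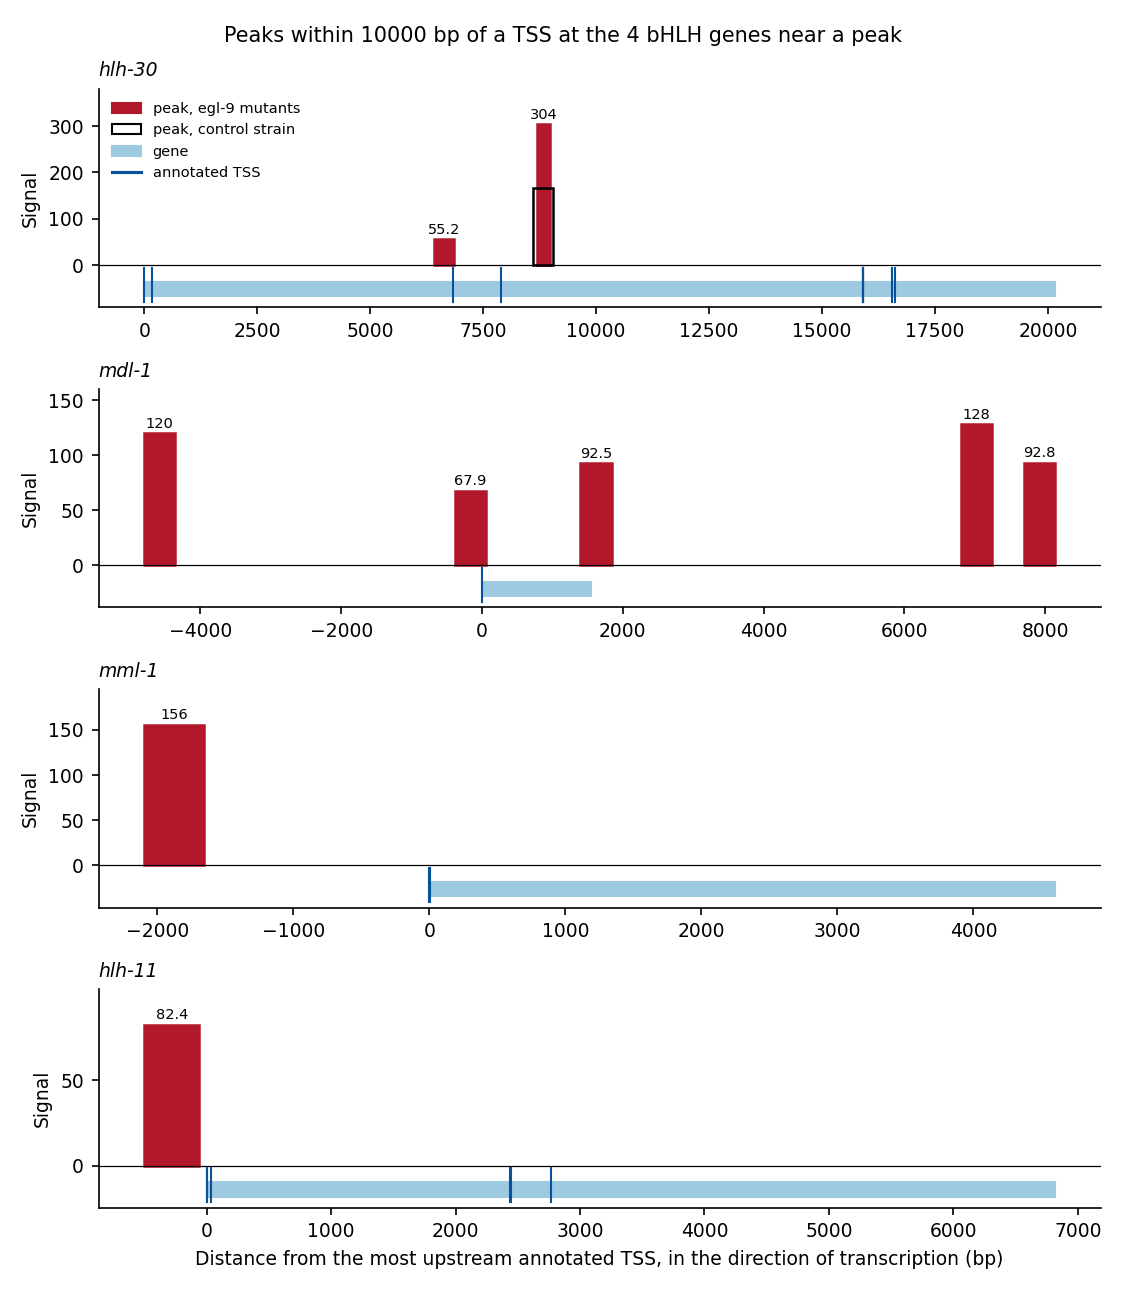
Peaks within 10000 bp of a TSS at hlh-30, mdl-1, mml-1 and hlh-11. The horizontal axes give the distance in bp from the most upstream annotated TSS in the direction of transcription and the vertical axes the peak signal; filled bars are peaks of egl-9 mutants, the open bar is the control peak, and the blue bar with ticks is the gene with its TSSs. The control peak sits on the hlh-30 peak of signal 304, and mdl-1 has 5 peaks.

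mdl-1 had the most peaks around it. MDL-1 is a repressor that pairs with the Max-like protein MXL-1 and opposes activating partners at E-boxes. The gene lies on the plus strand of chromosome X, is 1549 bp long and has 1 transcript. A peak at X:6741964-6742407 was centred 165 bp upstream of the TSS, with a signal of 67.9 (rank 369) and 3 core matches at 2 places, including an E-box. Another, at X:6743750-6744193, was centred 1621 bp downstream of the TSS and 73 bp past the end of the gene. It had a signal of 92.5 (rank 199) and an E-box. The peak past the gene end was thus 1.36 times as high as the one at the promoter, with centres 1786 bp apart.

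Further peaks flanked mdl-1 beyond the distance used. A peak at X:6737553-6737996 was centred 4576 bp upstream, with a signal of 120 (rank 116) and an E-box, and lay slightly closer to the TSS of R03E9.2 (4474 bp). Downstream, peaks centred 7027 and 7921 bp from the TSS had signals of 128 (rank 104) and 92.8 (rank 198), and mdl-1 was the protein-coding gene with the nearest TSS to both. In all, 5 peaks lay within 10000 bp of the mdl-1 TSS, each with an HRE core and 4 with an E-box. No other bHLH gene had more than 2, and 14 of 19934 other protein-coding genes (0.0702%) had at least 5. The distance of 10000 bp was chosen after these values were seen. No peak around mdl-1 overlapped a control peak.

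mml-1 had 1 peak, at III:7376383-7376826, with a signal of 156 that ranked 73 of 604 and 13 of the 92 peaks on chromosome III. MML-1 pairs with MXL-2 as the worm counterpart of the Mondo and Mlx dimer, which responds to sugar in mammals. The peak was centred 1874 bp upstream of the nearer of its 2 TSSs, which fall within 7 bp, and T20B12.7, the next gene, lay 2440 bp away. It was the member peak closest to the 2000-bp limit, and with a limit of 1000 bp it was lost. The window held 5 core matches at 3 places, of which 2 were E-boxes. Only 8 of the 604 peaks (1.32%) had at least 2 E-boxes in their window.

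An 11-bp run, ACCACGTGACA, was shared between the E-boxes of hlh-30 and mml-1 and includes the E-box itself. It was present in 3 of the 604 windows, those of hlh-30, mml-1 and a peak nearest to H18N23.2 (signal 352, rank 9). The length alone was not particular to this pair. The hlh-11 peak and the mdl-1 upstream peak also shared an 11-bp run, on opposite strands, which was present in 10 of the 604 windows. The flanks show where the likeness ends, with the E-box in capitals on the plus strand of WBcel235.
hlh-30, IV:4026075-4026096: ccgaacacCACGTGacactgtc
mml-1, III:7376686-7376707: tattagacCACGTGacattatt
mml-1, III:7376547-7376568: attatagcCACGTGgtttccca
mdl-1 upstream peak, X:6742218-6742239: gcgaggcgCACGTGcatacaca
mdl-1 downstream peak, X:6744029-6744050: atgttgatCACGTGtcgccgat

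hlh-11 had 1 peak, at III:9619209-9619652, 280 bp upstream of the nearest of its 6 TSSs and upstream of all 8 transcripts. HLH-11 is a repressor related to mammalian AP-4. The signal was 82.4, rank 258 of 604. The window held no HRE core and no E-box, nor did the whole peak hold a core. It held GAGAGA at 4 places, some overlapping, and ACACAC at 5, the latter present in 28.3% of the list's peaks. The coreless peaks of hlh-11 and hlh-30, both close upstream of a TSS, held GAGAGA, as did 76 of the 195 coreless peaks of the list (39.0%).

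**Figure D2:**
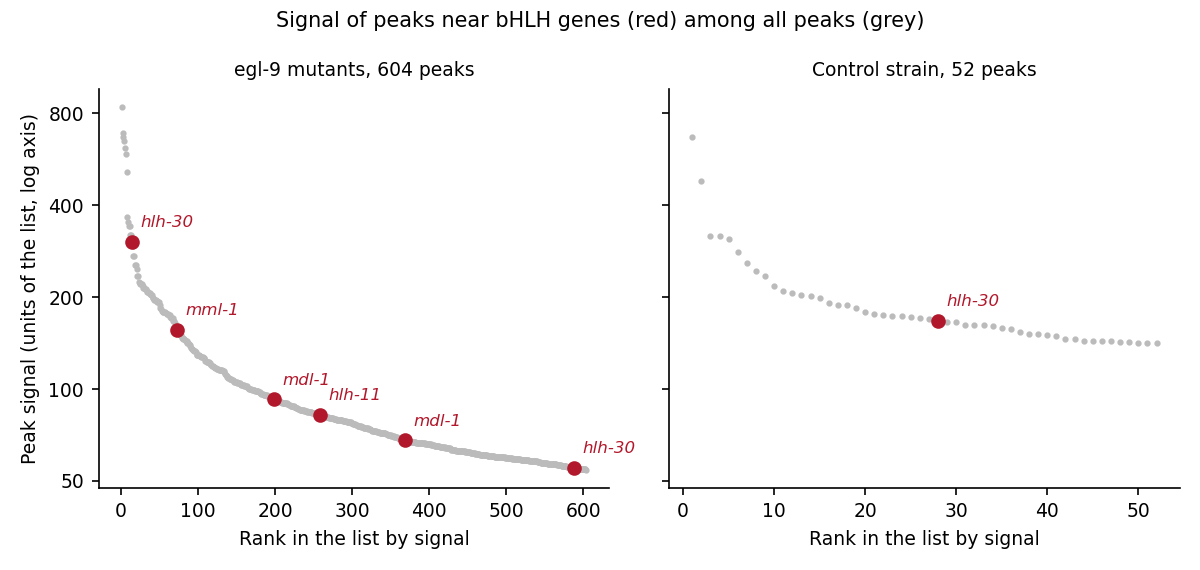
Signal of every peak against its rank, for egl-9 mutants (left) and the control strain (right), with signal on a log axis in the units of each list. Red points are peaks near bHLH genes: from 304 (hlh-30, rank 14) to 55.2 (hlh-30, rank 588) in egl-9 mutants, and 167 (hlh-30, rank 28 of 52) in the control strain.

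The 6 member peaks spanned nearly the whole range of signal, with a median of 87.5 beside 76.7 for the list. An HRE core was present in 4 of the 6 (66.7%), beside 67.7% of all peaks, so the core was no more frequent at bHLH genes. An E-box was present in 4 of the 6, beside 14.4% of all peaks (87 of 604) and 4.4% of windows of the same length at the most upstream TSS of every protein-coding gene. All 4 member peaks with a core held an E-box, whereas 87 of the 409 core-bearing peaks of the list did (21.3%). Cores outside an E-box also lay in the hlh-30 intronic peak (beginning at positions 20 and -92) and the mml-1 peak (7). In both, the core nearest the centre was not in an E-box. The mdl-1 upstream peak held a core outside its E-box at -40. By signal, the hlh-30 peak ranked 5 of the 87 E-box peaks and that of mml-1 ranked 10. E-box peaks as a whole had a median signal of 83.8, beside 79.2 for peaks with a core but no E-box and 68.0 for peaks with no core. With 6 peaks, of which 4 belonged to hlh-30 and mdl-1, these shares describe these loci and were not tested.

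**Figure D3:**
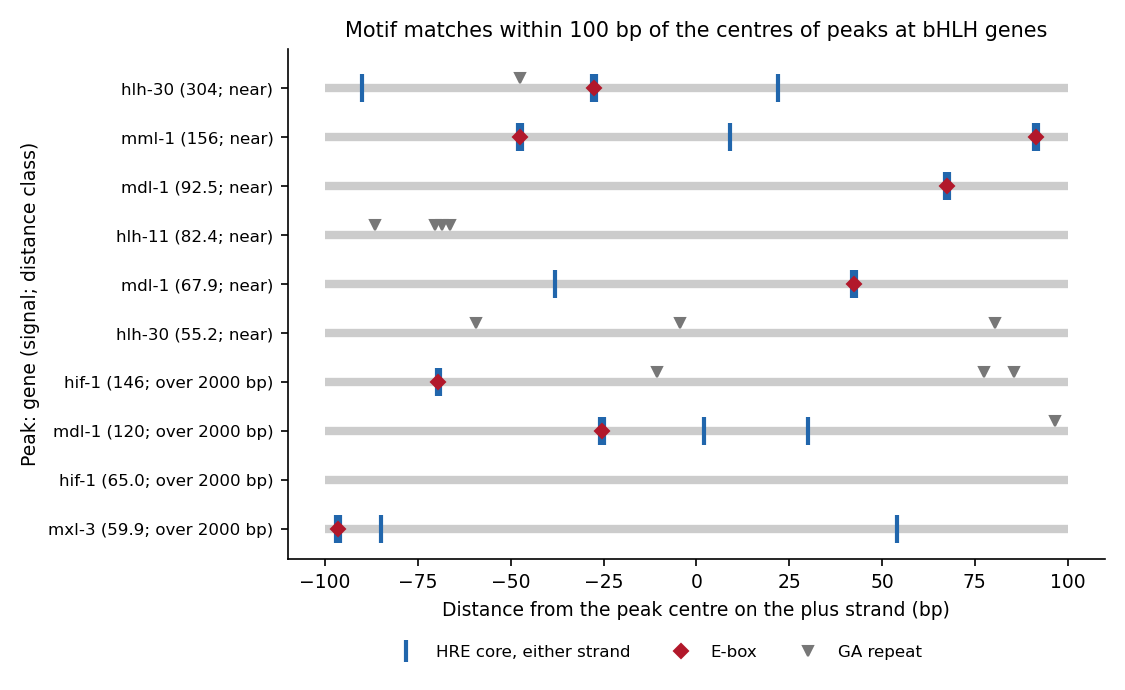
Positions of HRE cores (blue bars), E-boxes (red diamonds) and GAGAGA (grey triangles) in the windows of peaks at bHLH genes, with distance from the peak centre in bp on the horizontal axis. Rows give the gene, the signal and whether the centre lay within 2000 bp of a TSS; among the 6 near peaks, that of hlh-11 and the weak peak of hlh-30 have no core.

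The member peaks were also set beside the list for other genes close by. None of the 6 peaks had another protein-coding gene within 2000 bp, although of the 459 peaks of the list with any gene within that distance 238 (51.9%) reached just 1. The closest small RNA gene of the tRNA, snoRNA or snRNA classes lay 38603 bp away, whereas 99 of the 604 peaks were centred within 500 bp of one.

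Next, the share of bHLH genes near a peak was set beside that of other genes. In egl-9 mutants 4 of 39 were near a peak (10.3%, Wilson 95% interval 4.06 to 23.6%), beside 661 of 19934 other protein-coding genes (3.32%). In the control strain 1 of 39 was near a peak, beside 46 others (0.231%). The intervals cover counting only, as if genes were independent draws, and no test over the members was made. Within 500 bp 3 members were near a peak, beside 1.61% of other genes, and within 1000 bp the same 3, hlh-11, hlh-30 and mdl-1, beside 2.26%. Within 5000 bp 7 members were near, beside 6.39%.

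The number of TSSs and the sequence around them were compared as well. More than 1 annotated TSS was present in 8 of the 39 bHLH genes (20.5%) and in 27.4% of other genes. The mean number of TSSs was 1.56 per bHLH gene and 1.49 per other gene. With bases shared between genes counted once, those within 2000 bp of a TSS came to 4.27 kb per bHLH gene. For other genes the value was 3.27 kb, lowered by overlaps between neighbouring genes. The share of genes near a peak was counted gene by gene without such merging, so these values do not give the sequence open to each gene. The merged 166.5 kb around bHLH genes held 6 peaks, 36.0 per Mb (exact Poisson 95% interval 13.2 to 78.4), beside 6.95 per Mb around other genes. The interval treats peaks as independent, whereas 4 of the 6 lay as pairs at hlh-30 and mdl-1, so it is too narrow. The members were also chosen with earlier results known, so the densities were not tested. At least 2 peaks lay near 2 of the 4 bHLH genes that were near any, beside 57 of the 661 other genes near a peak (8.62%). The promoters of bHLH genes, from 250 bp before to 50 bp after the most upstream TSS, held a core in 12 of 39 cases (30.8%), beside 41.1% of all promoters. Among the 4 genes near a peak only the promoter of mdl-1 held a core and an E-box.

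**Figure D4:**
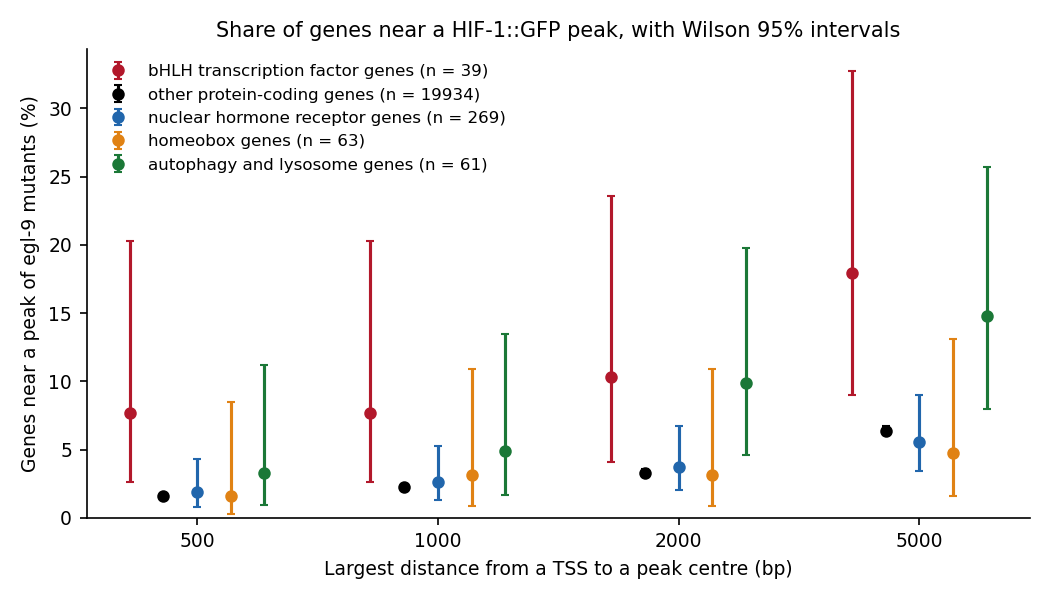
Share of genes near a peak of egl-9 mutants (vertical axis, percent) at 4 limits of distance in bp (horizontal axis). Points are shares and bars Wilson 95% intervals; at 2000 bp the bHLH genes stand at 10.3% and other protein-coding genes at 3.32%.

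The genes near a peak came from 2 of the branches of the family, which were drawn up with earlier results of these data known. Of the Myc, Mondo, Max and Mad network 2 of 5 genes were near a peak (mdl-1 and mml-1), and of the TFEB, SREBP and AP-4 relatives 2 of 3 (hlh-30 and hlh-11). None of the 4 bHLH-PAS genes was near one. The nearest peak to aha-1, which encodes the partner of HIF-1, lay 217094 bp away, and that to ahr-1, for the aryl hydrocarbon receptor, lay 95339 bp away. None of the 19 muscle, mesoderm, proneural and E protein genes was near a peak, among them hlh-1 for the MyoD relative (141713 bp), hlh-8 for the Twist relative (38147 bp) and hlh-2 for the E protein (111528 bp). Nor was any of the 7 Hairy and REF-1 relatives. The upper Wilson limits were 49.0% for the bHLH-PAS genes, 16.8% for the group of 19 and 35.4% for the group of 7. All lay above the 3.32% of other protein-coding genes near a peak. With so few genes, the absence of peaks near these branches does not set them apart from other genes. The genes for partners of MDL-1 and MML-1 were not near a peak either, as was true of most other genes. Their nearest distances were 279140 bp for mxl-1 and 120876 bp for mxl-2. The gene sbp-1, for the SREBP relative of lipid synthesis, stood farthest of all at 375568 bp. The median distance to the nearest peak was 48437 bp over the 39 genes and 75024 bp over other genes.

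**Figure D5:**
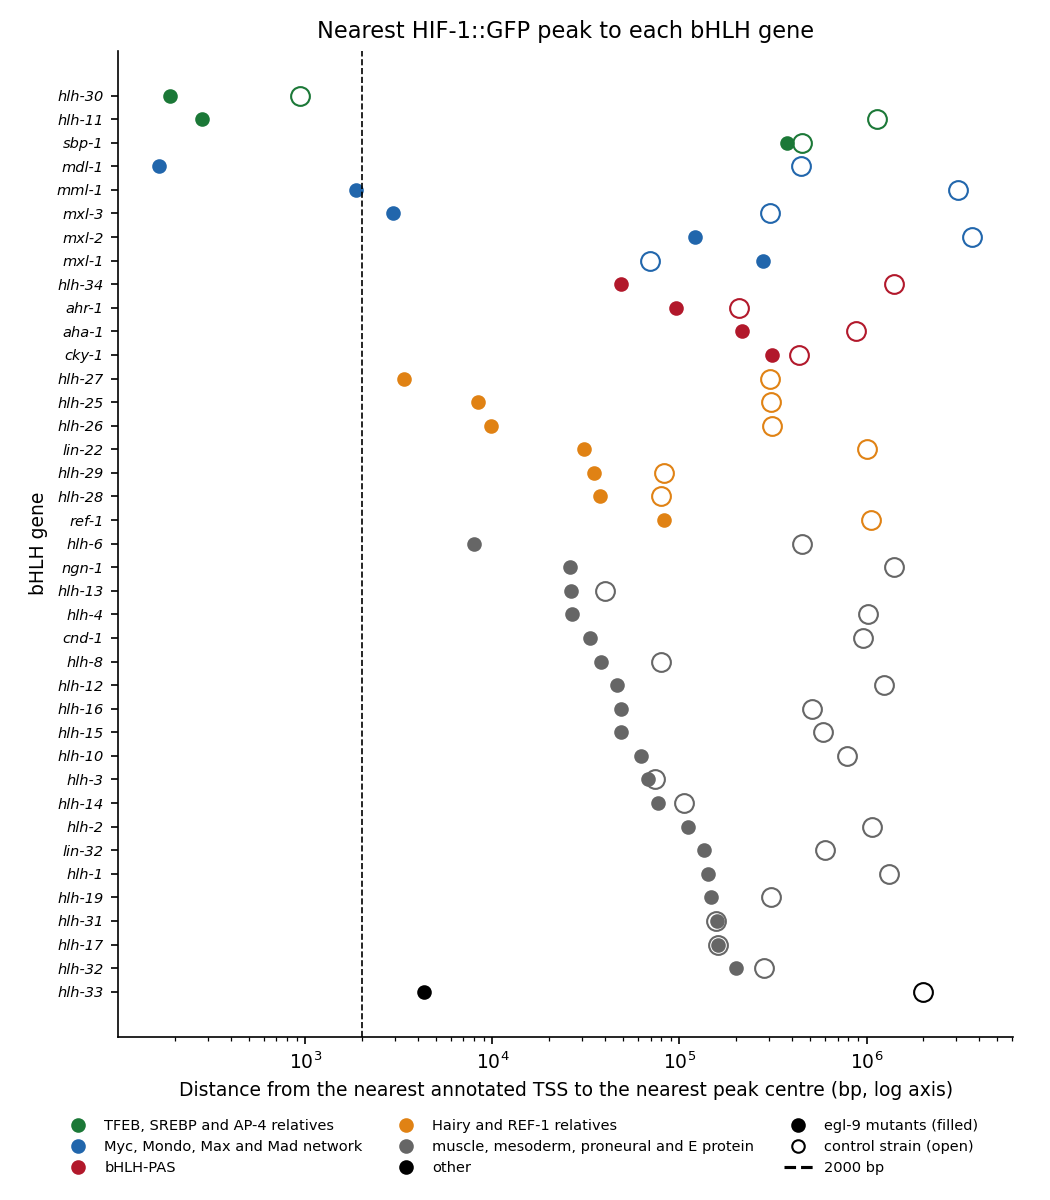
Distance from the nearest TSS of each of the 39 bHLH genes to the nearest peak centre, in bp on a log axis, with filled points for egl-9 mutants and open points for the control strain and colours for the branches of the family. The dashed line marks 2000 bp; hlh-30, hlh-11, mdl-1 and mml-1 lie to its left in egl-9 mutants and hlh-30 alone in the control strain.

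Just outside the limit lay mxl-3, which encodes a Max-like protein that represses lysosomal lipase genes in fed animals and opposes HLH-30. Its nearest peak was centred 2938 bp upstream, with a signal of 59.9 (rank 492), 4 core matches and an E-box, and mxl-3 was the nearest gene. A second peak 7954 bp upstream had a signal of 81.7, 5 core matches and 2 E-boxes, but C49F8.15 was nearer (3828 bp). The peak 3367 bp from hlh-27 (signal 99.6) had no core, was centred 18 bp from an snRNA gene and lay nearer to ins-13. The same peak was the nearest to hlh-25 (8341 bp) and hlh-26 (9838 bp), the neighbours of hlh-27. The peak 4319 bp from hlh-33 (signal 94.3) also had no core and lay 177 bp from ddp-1. The peak 7970 bp from hlh-6 lay nearest to nhr-19. The remaining 29 genes had no peak within 10000 bp. Within that distance 10 of 39 members had a peak (25.6%), beside 10.9% of other protein-coding genes.

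Outside the naming rule, hif-1 itself had peaks at both ends. One was centred 2017 bp upstream, narrowly beyond the limit, with a signal of 146 (rank 82) and an E-box, and the other 2888 bp downstream of the nearest TSS with a signal of 65.0 and no core. Both strains carried a hif-1 transgene, and reads from it and from the locus cannot be told apart in these lists. The nearest peak to hnd-1, a mesodermal bHLH gene, lay 73379 bp away. Of 5 further genes whose RefSeq product named a bHLH domain, W06H8.6 was near a peak, centred 796 bp upstream (signal 76.2, 1 core match, no E-box). A stronger peak with W06H8.6 as its nearest gene was centred 2394 bp from the TSS (signal 114, rank 134, with an E-box).

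Other transcription factor families and the genes around HLH-30 were counted the same way. Outside the bHLH members, 3.32% of protein-coding genes were near a peak. Of the nuclear hormone receptor genes 10 of 269 were near a peak (3.72%), led by nhr-57 (signal 670), and of the homeobox genes 2 of 63 (3.17%), ceh-99 and ceh-38 (67.0 each). Of the bZIP genes 1 of 12 was near a peak (8.33%), zip-2 (signal 83.1). Among autophagy and lysosome genes, the class that HLH-30 activates, 6 of 61 were near a peak (9.84%). The highest were at epg-9 (123, with an E-box), lipl-2 (110, with a core) and atg-7 (87.8, with neither). Of 7 regulators of HLH-30 in the nutrient-sensing pathway only rheb-1 was near a peak (14.3%, signal 64.6). These peaks are positions of HIF-1::GFP, and whether the expression of hlh-30, mdl-1, mml-1 or hlh-11 differed between the strains was not analysed here. The paper reported that most of its HIF-1 sites lay in or near regions occupied by many transcription factors. It described such regions as a possible source of false ChIP-seq signals. Whether the member peaks lie in such regions was not examined.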

How the data were processed

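The authors aligned reads with BWA to WBcel235 (submitters' processing notes) and called peaks with SPP, keeping those reproducible between 2 ChIP replicates against pooled input. The signal column of the 2 deposited peak lists was used as given by the authors. It was used for ranks and medians within a list. The summit offset column served as an alternative to the centre. A further column of unstated meaning, at the position of q values, was left out. Mitochondrial peaks (19 in egl-9 mutants, 18 in the control strain) were left out. Gene models came from Ensembl release 115 and sequence and product names from RefSeq for WBcel235.

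Peak centres, cores and E-boxes were computed in Python 3.11.15 with pandas 2.3.3 and statsmodels 0.14.6. Motifs were searched on both strands within 100 bp of the centre. Peaks overlapped when 1 bp was shared. The functions were tested on simulated peaks and motifs. No set test was made. The members, subfamilies and comparison lists were chosen with earlier results of these data known. All members near a peak, those within 5000 bp, hif-1 and hnd-1 were named, with up to 3 genes of each comparison list. Members within 10000 bp and W06H8.6, R03E9.2, T20B12.7, H18N23.2 and C49F8.15 were named after their values were seen. No protein table was used, so the label check rests on product names.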

Additional observations from a re-analysis of the deposited data

How the results depend on the processing

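The count of bHLH genes near a peak of egl-9 mutants stayed between 3 and 4 under 8 of the alternatives tried (distances of 500 and 1000 bp, the most upstream TSS only, the nearest gene only, peaks above the median signal only, the summit, removal of peaks at tRNA, snoRNA and snRNA genes, and hif-1 and hnd-1 added). Over these settings the share of other protein-coding genes moved from 1.61% (500 bp) to 3.32% (summit). It was 3.09% with the most upstream TSS only, where 3 members remained, and 1.7% with peaks above the median signal. Some of the 8 settings could not change the member count. The member peaks had no other protein-coding gene within 2000 bp and no tRNA, snoRNA or snRNA gene within 500 bp. Their summits lay at most 5 bp from the centres, and hif-1 and hnd-1, at 2017 and 73379 bp, lay beyond the limit. The member count was 7 within 5000 bp, where hlh-27, hlh-33 and mxl-3 were added, beside 6.39% of other genes. The control count of 1 became 0 within 500 bp, with the most upstream TSS only and with peaks above the median signal only, where hlh-30 at rank 28 of 52 fell out. In those settings the control shares of other genes were 0.0702, 0.211 and 0.135%. The share of member peaks with an HRE core ranged from 50.0% with a window of 50 bp to each side of the centre, and also for genes within 1000 bp, to 83.3% with 200 bp to each side or the whole peak, 1 peak more or less. The share with a control counterpart ranged from 10.0 to 25.0%, the median signal from 75.1 to 125 and the density from 24.0 to 45.1 peaks per Mb. No paired analysis was possible because each genotype's replicates were reduced to 1 list, and for the same reason no replicate could be left out. The depth of single libraries was not given, only a range over all of them, and an absent peak does not show absent binding.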
